A study of Mus musculus with 12 samples.

Results

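The genes described here are lipoprotein lipase (Lpl) and 8 further genes of its cofactors and of fatty acid uptake, namely Angptl4, Gpihbp1, Lmf1, Cd36, Vldlr, Fabp3, Fabp4 and Fabp5. They were chosen by gene symbol, with earlier results of these data known, and make up 9 of the 20295 genes in the count table. All 9 passed the filter on low counts that left 13543 genes for testing. Their transcripts were measured by RNA sequencing in epididymal white adipocytes (eWAs) in 3D culture. The cells came from lean male C57/BL6J mice, by collagenase digestion of epididymal fat and floatation, and 50000 cells per well were kept in a hydrogel for 2 days. The 12 libraries form 4 groups of 3. DMSO received the vehicle, ISO received the pan β-adrenergic agonist isoproterenol for 3 h, Lip received blockers of ATGL and HSL, the main triglyceride and diglyceride lipases of fat cells (named in the study's methods as Atglistatin and CAY10499), and Lip+ISO received the inhibitors first and then ISO for 3 h. The sample titles name ISO as the stimulus and are followed here. All groups share the digestion, the floatation and the culture without vessels or flowing plasma.

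Lipoprotein lipase hydrolyzes the triglycerides of chylomicrons and very low density lipoprotein at the capillary wall, and the fatty acids set free are taken up by the tissue. Adipocytes make the enzyme, LMF1 is the endoplasmic reticulum factor that lets it fold into its active form, and GPIHBP1 is the endothelial protein that carries it into the capillary and holds it there. ANGPTL4 is a secreted inhibitor that inactivates the enzyme and reduces lipid uptake in fasting fat tissue. CD36 takes up long-chain fatty acids at the cell surface, VLDLR binds triglyceride-rich lipoproteins, and the fatty acid binding proteins (FABPs) carry fatty acids within the cell. Intracellular lipolysis by ATGL and HSL runs in the other direction, out of the stored triglyceride, and it was this step that the inhibitors blocked. Angptl4 is a well-known target gene of the fatty acid sensing PPAR receptors.

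The response to ISO was compared without and with the inhibitors, the inhibitors were compared with DMSO and, under ISO, with ISO alone, and the interaction was the ISO effect in inhibited cells minus the ISO effect in uninhibited cells. Levels are CPM, counts relative to the size of the library, scaled by TMM, a correction for library composition. A gene passed at an adjusted p at or under 0.05 in the edgeR quasi-likelihood test, with Benjamini-Hochberg adjustment over all 13543 genes, and all adjusted p-values below are from this test unless another is named. Libraries held 22632220 to 43707557 counts, and 3 counts, the most that a count of 0 allows, were 0.0678 to 0.132 CPM by counting error alone. The 9 genes together took 2.4% to 3.44% of the counts of a library. All 12 adipocyte markers checked were detected in every library, with a summed level of 15413 to 24560 CPM. Transcripts of other cells of the tissue were present too. The summed levels of 15 endothelial, 13 macrophage and 12 fibroblast or progenitor markers reached at most 616, 172 and 1283 CPM, and each was highest in ISO. The sum of 7 mesothelial markers reached at most 80.4 CPM, also in ISO. The sum of 7 pericyte and smooth muscle markers had means of 815, 825, 814 and 780 CPM in DMSO, ISO, Lip and Lip+ISO. The single markers did move, with a median log2 fold change of 0.54 for ISO against DMSO and -0.45 for Lip+ISO against ISO. The part of these other cells in the results was not tested.

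Angptl4 was the member that moved most, and it fell with the inhibitors (NM_020581, mm9 chromosome 17, 33911845 to 33918520, minus strand). Its levels in replicates 1, 2 and 3 were 1169, 1314 and 1414 CPM in DMSO, 1002, 1088 and 1143 CPM in ISO, 678, 768 and 793 CPM in Lip, and 118, 175 and 153 CPM in Lip+ISO. No library of one group overlapped with those of another, and DMSO, ISO, Lip and Lip+ISO followed each other from high to low within each of the 3 replicate numbers. Of all tested genes, 43.3% lay apart between ISO and DMSO and 39.1% between Lip+ISO and Lip. The share was 10.4% between Lip and DMSO and 25.4% between Lip+ISO and ISO. The levels of Angptl4 rest on 2928 to 48127 counts per library.

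Under ISO, the inhibitors lowered Angptl4 from 1078 ± 70.7 to 149 ± 28.4 CPM (SD, n = 3). On the log2 scale the difference was -2.86 with an SE of 0.14 (edgeR adjusted p = 2.7e-07), or 7.25-fold lower with a 95% interval of 5.88 to 8.93. Of the 9 members, 2 passed lower in Lip+ISO than in ISO (Angptl4 and Gpihbp1) and 0 passed higher, where 4.59% of all genes tested passed lower and 4.36% higher. ISO itself lowered Angptl4 in cells with inhibitors, from 746 ± 60.8 CPM in Lip to 149 CPM, with a log2 fold change of -2.33 ± 0.14 (edgeR adjusted p = 8.02e-08), or 5.02-fold (4.09 to 6.16). In that comparison of Lip+ISO with Lip, 2 members passed lower (Angptl4 and Vldlr) and 0 higher, beside 15.8% and 11.5% of all genes, so the count of lower members is close to the background.

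Without inhibitors the response of Angptl4 to ISO was small. The log2 fold change of ISO against DMSO was -0.27 ± 0.13, with an interval of -0.55 to 0.01, and it did not pass (edgeR adjusted p = 0.144). Same-numbered libraries of these 2 groups deviated together, and a replicate block in the fit gave the same -0.27, which passed (edgeR adjusted p = 0.0227). The interaction was -2.06 ± 0.19 on the log2 scale (interval -2.46 to -1.66, edgeR adjusted p = 0.000195), so the drop with ISO was 4.17-fold deeper with inhibitors than without them. Angptl4 was the 1 member of 9 that passed in the interaction, lower, with 0 higher, where 0.724% of all genes passed lower and 0.901% higher. These calls of Angptl4 in Lip+ISO against ISO, in Lip+ISO against Lip and in the interaction held in 15 of 15 fits that left out 1 library or 1 replicate number.

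The inhibitors alone also went with less Angptl4. The level was 1299 ± 123 CPM in DMSO and 746 CPM in Lip, with a log2 fold change of -0.80 ± 0.13 (1.74-fold lower, interval 1.43 to 2.12), but the edgeR adjusted p was 0.0654. So 0 of 9 members passed in Lip against DMSO in either direction, beside 0.0443% of all genes lower and 0.00738% higher, and Angptl4 was the 1 member with an unadjusted p under 0.05, among 582 such genes in all. Same-numbered libraries deviated together here too, and with the replicate block Angptl4 passed at the same size (-0.80, edgeR adjusted p = 0.00334). It passed in DESeq2's Wald test too (adjusted p = 3.67e-06), and in 2 of 15 fits with libraries left out.

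**Figure D1:**
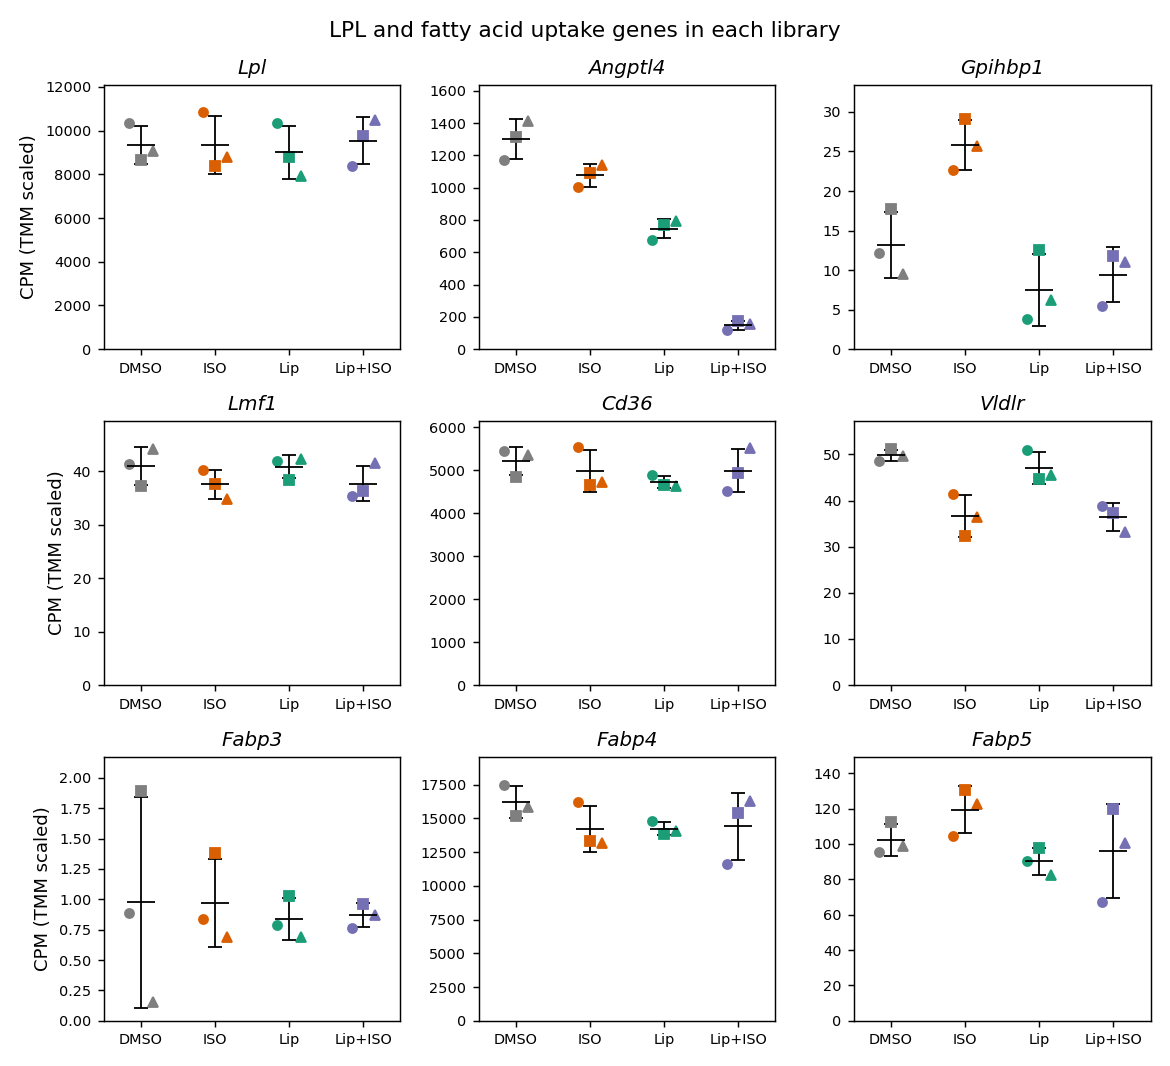
Level of each of the 9 genes in CPM (vertical axes from 0, a scale for each gene) in DMSO, ISO, Lip and Lip+ISO. Circles, squares and triangles are replicates 1, 2 and 3, the long bar is the mean and the whiskers are the SD (n = 3). Angptl4 steps down from DMSO (1169 to 1414 CPM) to Lip+ISO (118 to 175 CPM), while Lpl stays between 7919 and 10839 CPM.

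The enzyme's own transcript did not move with Angptl4. Lpl (NM_008509, chromosome 8, 71404454 to 71430831, plus strand) stood at 10341, 8650 and 9058 CPM in DMSO, at 10839, 8360 and 8814 CPM in ISO, at 10326, 8789 and 7919 CPM in Lip, and at 8393, 9738 and 10498 CPM in Lip+ISO. The 4 groups overlapped throughout. Lpl passed in no comparison, and its log2 fold changes were -0.00 for ISO against DMSO (interval -0.30 to 0.30) and 0.03 for Lip+ISO against ISO (-0.27 to 0.33). A rise of Lpl by more than 1.26-fold lies outside the second of these intervals, and smaller ones were not detectable with 3 libraries per group.

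Set against each other per kilobase of counted exon, Angptl4 transcripts amounted to 24.0%, 32.3% and 33.2% of Lpl transcripts in the DMSO libraries and to 19.7%, 27.7% and 27.6% in the ISO libraries. The share was 14.0%, 18.6% and 21.3% in Lip and 3.00%, 3.82% and 3.10% in Lip+ISO. Every Lip+ISO library thus had a lower share than every library of the other groups. Lpl per kilobase covered 1956 to 2677 CPM over all 12 libraries, and Angptl4 covered 62.2 to 743 CPM.

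**Figure D2:**
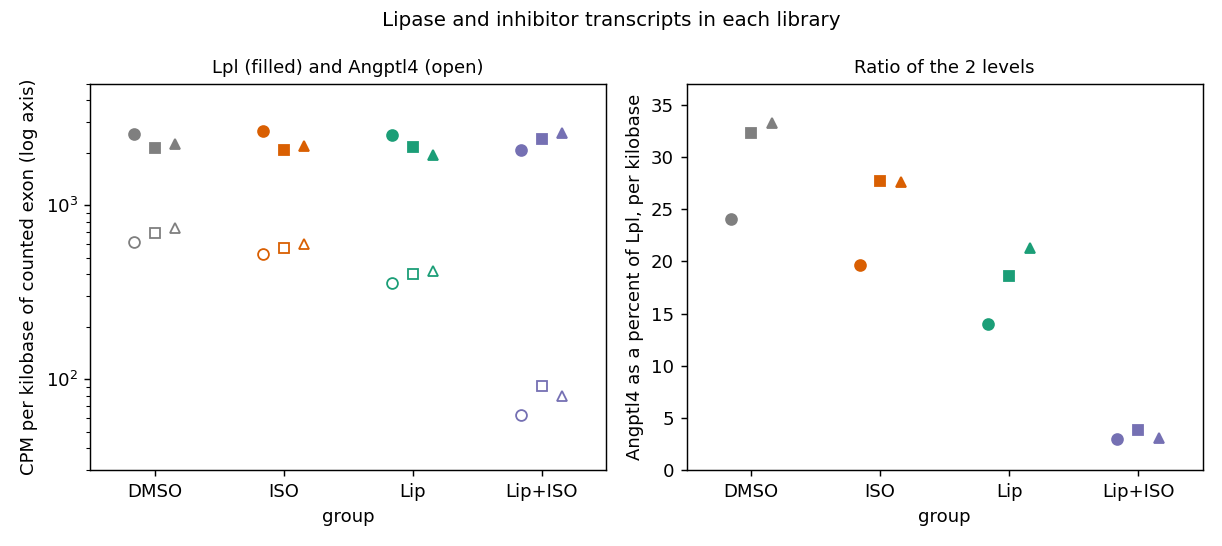
Left, Lpl (filled) and Angptl4 (open) in CPM per kilobase of counted exon on a log axis, 1 point a library (circle, square and triangle for replicates 1, 2 and 3). Right, Angptl4 as a percent of Lpl on the same scale, at 24.0% to 33.2% in DMSO and 3.00% to 3.82% in Lip+ISO.

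PPAR receptors bind, as heterodimers with RXR, to a pair of AGGTCA copies separated by 1 base of any kind. This pattern was searched on both strands of the mm9 genome in the 7000 bases from the start of each gene onward. In shorter genes this window ran past the end, and no bases before the start were searched. Matches with at most 2 mismatches were kept. Angptl4 had a match with 1 mismatch in intron 6 (chr17:33912720-33912732) and one with 2 mismatches in intron 3 (chr17:33916242-33916254). They are shown because Angptl4 carries the main change, with the sequence in the direction of the gene, 8 flanking bases in lower case and the match in capitals.
Angptl4 intron 6: ccacaagcTGTCCTCTGACCTtcataccc
Angptl4 intron 3: tcccccagTGACCTTTCTCCTactttccc
Such matches are common, since 65.8% of the tested genes hold one with up to 2 mismatches in this window, 15.6% one with up to 1 and 1.68% an exact one. Of the other members, Lmf1 had 2 matches, 1 of them with 1 mismatch, and Vldlr and Fabp4 had 2 each, all with 2 mismatches. For Fabp4, 1 of the 2 lay past the end of the gene. The remaining 5 members had none in the window. These are matches of letters and no measure of binding.

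Gpihbp1 (NM_026730, chromosome 15, 75427088 to 75428643, plus strand) was highest in ISO and lower where inhibitors were present. Its levels were 12.2, 17.7 and 9.55 CPM in DMSO, 22.7, 29.1 and 25.7 CPM in ISO, 3.81, 12.6 and 6.17 CPM in Lip, and 5.41, 11.8 and 11 CPM in Lip+ISO. All 3 ISO libraries lay above all other libraries, while the other 3 groups overlapped. Of all tested genes, 43.3% lay apart between ISO and DMSO and 25.4% between Lip+ISO and ISO. Between ISO and Lip+ISO mean Gpihbp1 went from 25.8 ± 3.20 to 9.41 ± 3.48 CPM. This is -1.46 ± 0.38 on the log2 scale (edgeR adjusted p = 0.0328), or 2.74-fold lower with an interval of 1.54 to 4.87. This call held in 9 of 15 fits with libraries left out. It was lost without ISO replicate 2 (adjusted p = 0.107) or 3 (0.0847), without Lip+ISO replicate 1 (0.0847) or 3 (0.0671), and without replicate 1 (0.069) or 3 (0.19) of every group.

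For ISO against DMSO, Gpihbp1 had a log2 fold change of 0.98 ± 0.38 (1.97-fold, interval 1.12 to 3.46) and did not pass (edgeR adjusted p = 0.0729). With the replicate block it passed, at 0.99 (edgeR adjusted p = 0.00697), and it also passed in DESeq2's test (0.0265), in the fit of these 2 groups alone (0.00767) and without DMSO replicate 2 (0.046), Lip replicate 1 (0.0401) or 2 (0.0282) or Lip+ISO replicate 1 (0.0476). The inhibitors alone gave -0.80 ± 0.38 (edgeR adjusted p = 1.00), ISO with inhibitors gave 0.32 ± 0.39 (0.601), and the interaction was -0.65 ± 0.54 with an interval of -1.82 to 0.51 (0.654), so the responses to ISO with and without inhibitors were not shown to differ.

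Because GPIHBP1 is an endothelial protein, its transcript was set beside 15 other endothelial markers, all detected in every library. Their summed level was 160 to 295 CPM in DMSO, 340 to 616 CPM in ISO, 83.7 to 263 CPM in Lip and 121 to 352 CPM in Lip+ISO. Gpihbp1 amounted to 5.48% to 7.61% of that sum in DMSO, 4.72% to 6.67% in ISO, 4.55% to 4.79% in Lip and 3.34% to 4.46% in Lip+ISO. The sum was highest in ISO, as Gpihbp1 was. Cldn5, which is part of the sum, had means of 17.8, 101, 10.3 and 29.3 CPM in DMSO, ISO, Lip and Lip+ISO. The share of Gpihbp1 was lower in every Lip library than in every DMSO library. It was also lower in every Lip+ISO library than in every ISO library. Between DMSO and Lip+ISO the mean sum went from 210 to 245 CPM, while mean Gpihbp1 went from 13.2 to 9.41 CPM. The part of endothelial content in the result was not tested. Of the 15 markers, 2 passed higher in ISO than in DMSO (Cldn5, a tight junction protein, and Flt1, a VEGF receptor), beside 12.3% of all genes. Their median log2 fold change over the 15 was 0.95. In Lip+ISO against ISO 1 passed lower (Cldn5), beside 4.59% of all genes, with a median of -0.77. Both counts are near the background. Macrophage markers rose from a summed 62.9 to 75.3 CPM in DMSO to 118 to 172 CPM in ISO, with 7 of 12 tested markers passing higher. Fibroblast and progenitor markers went from 480 to 851 CPM to 948 to 1283 CPM, with 4 of 12 passing higher. These 2 counts also stand beside the 12.3% of all genes that passed higher. In such bulk libraries, fewer cells of a type and less RNA per cell cannot be told apart.

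**Figure D3:**
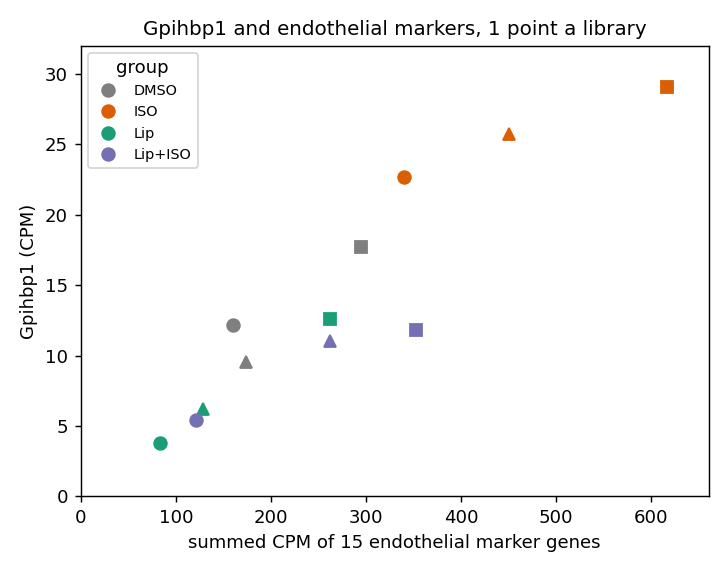
Gpihbp1 in CPM (vertical axis) against the summed CPM of 15 endothelial marker genes (horizontal axis), 1 point a library, colored by group and shaped by replicate (circle 1, square 2, triangle 3). The 3 ISO libraries (22.7 to 29.1 CPM) have a marker sum of 340 to 616 CPM, and only Lip+ISO replicate 2 among the others reaches that range.

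Vldlr fell with ISO both without and with inhibitors (NM_001161420, chromosome 19, 27291510 to 27328721, plus strand). It was at 48.7, 51.1 and 49.6 CPM in DMSO and at 41.3, 32.3 and 36.4 CPM in ISO. With inhibitors it was at 51.0, 44.7 and 45.5 CPM in Lip and at 38.8, 37.3 and 33.1 CPM in Lip+ISO. The 6 libraries with ISO were all below the 6 without it. Of all tested genes, 43.3% lay apart between ISO and DMSO and 39.1% between Lip+ISO and Lip.

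The log2 fold change of Vldlr was -0.44 ± 0.10 for ISO against DMSO (edgeR adjusted p = 0.00621), or 1.36-fold lower with an interval of 1.17 to 1.58. It was the 1 member of 9 that passed lower in that comparison, and 0 passed higher, where 13.9% of all genes passed lower and 12.3% higher, so this share of members is near the background. For Lip+ISO against Lip it was -0.37 ± 0.10 (edgeR adjusted p = 0.0145), or 1.29-fold lower (1.11 to 1.5). The interaction was 0.07 ± 0.14 (interval -0.23 to 0.38), and Lip+ISO differed from ISO by -0.01 ± 0.10 (-0.23 to 0.21), neither of which passed (edgeR adjusted p = 0.873 and 0.974). Without replicate 2 or 3 of every group the first call was lost (adjusted p = 0.12 and 0.0612). The second was lost without Lip replicate 1 (0.0754), Lip+ISO replicate 3 (0.0543) or replicates 1, 2 or 3 of every group (0.0542, 0.0637 and 0.125).

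The transcripts of fatty acid entry and carriage passed in no comparison, and they ranged from the most abundant member, Fabp4, to the least abundant, Fabp3. Fabp4, the FABP that marks adipocytes (NM_024406, chromosome 3, 10204343 to 10208576, minus strand), had 17496, 15177 and 15868 CPM in DMSO, 16189, 13299 and 13146 CPM in ISO, 14781, 13866 and 14045 CPM in Lip, and 11605, 15358 and 16264 CPM in Lip+ISO. The Lip libraries lay below the DMSO libraries, where 10.4% of all tested genes lay apart, and all other pairs of groups overlapped. Its log2 fold changes were -0.19 for both ISO and Lip against DMSO (edgeR adjusted p = 0.323 and 1.00) and 0.02 for both comparisons of Lip+ISO.

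Cd36, the fatty acid translocase (NM_001159558, chromosome 5, 17287508 to 17394777, minus strand), had 4841 to 5448 CPM in DMSO, 4669 to 5535 CPM in ISO, 4628 to 4895 CPM in Lip and 4517 to 5523 CPM in Lip+ISO. Its widest log2 difference between 2 groups was -0.14 ± 0.10, for Lip against DMSO (edgeR adjusted p = 1.00, interval -0.36 to 0.08). Cd36 and Fabp4 went up and down together from library to library, with r = 0.879 over the 12 libraries, and Lpl followed both, with r = 0.816 to Cd36 and 0.722 to Fabp4. These correlations of log2 CPM are descriptions over libraries that share groups and scaling.

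Fabp5, a FABP of many tissues that macrophages also express (NM_001272097, chromosome 3, 10012585 to 10016610, plus strand), was at 95.3, 113 and 98.7 CPM in DMSO, 105, 130 and 123 CPM in ISO, 90.4, 97.5 and 82.4 CPM in Lip, and 67.2, 120 and 101 CPM in Lip+ISO. The ISO group overlapped with DMSO and with Lip+ISO, and its log2 fold changes of 0.22 ± 0.17 against DMSO and of -0.32 ± 0.17 for Lip+ISO against ISO did not pass (edgeR adjusted p = 0.341 and 0.274). Of the members, Fabp5 tracked Gpihbp1 most closely (r = 0.807).

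Fabp3, the FABP of heart and skeletal muscle (NM_010174, chromosome 4, 129986022 to 129992707, plus strand), was close to the limit of detection, with 4 to 61 counts per library and 0.157 to 1.89 CPM. DMSO held both the lowest and the highest library. Its interval for ISO against DMSO, -1.25 to 1.30 on the log2 scale, runs from 2.38-fold lower to 2.46-fold higher, so a change within these bounds was not detectable at this depth. Its counts may also be uncertain, because 11.5% of the 36-base words of its annotated transcript occur in transcripts of Zcchc17 or Gm10570. Whether these words lie within the counted exons was not checked. The share was 1.5% for Lpl and 0 for the other 7 members.

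Lmf1, the maturation factor (NM_029624, chromosome 17, 25716119 to 25799771, plus strand), had 37.2 to 44.2 CPM in DMSO, 34.8 to 40.1 CPM in ISO, 38.3 to 42.3 CPM in Lip and 35.3 to 41.4 CPM in Lip+ISO. All 4 groups overlapped. Its log2 fold changes with ISO were -0.13 without and -0.12 with inhibitors (edgeR adjusted p = 0.353 and 0.418), and with library totals in place of TMM the second was -0.23 and passed (0.0451). Under that scaling the median of all genes in the comparison was itself at -0.12.

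**Figure D4:**
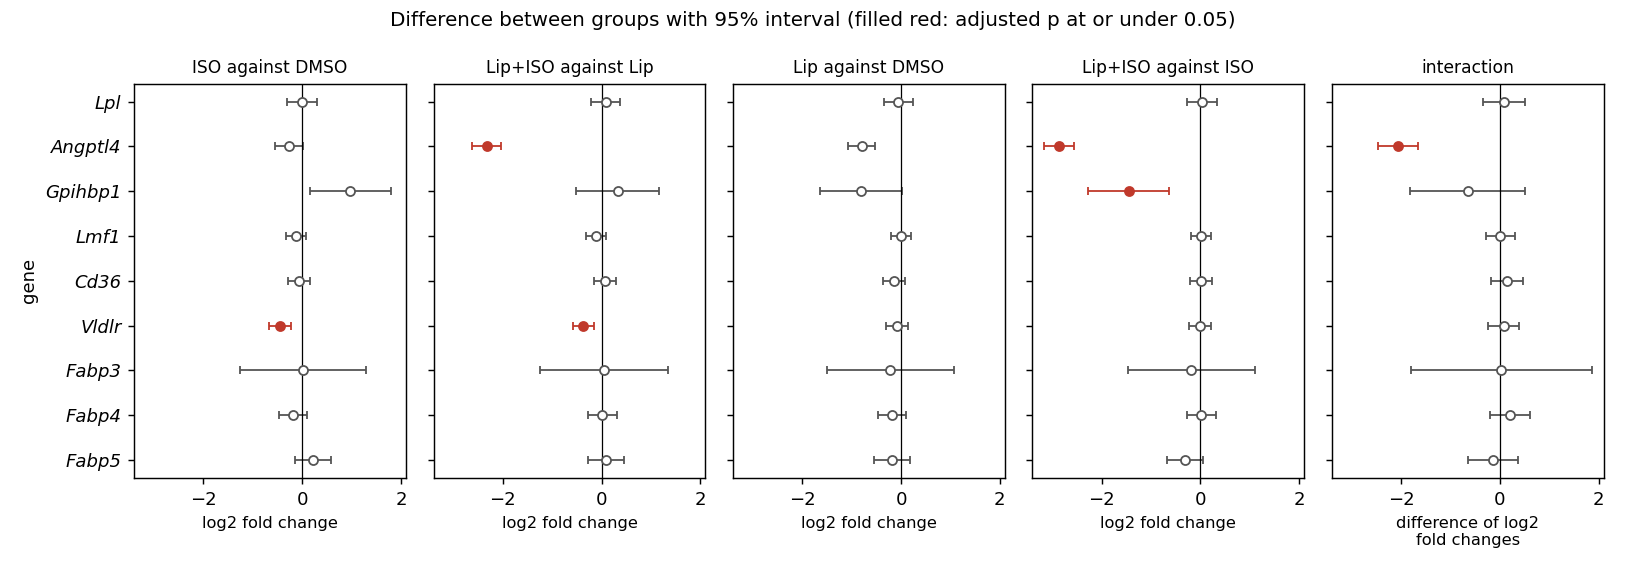
Log2 fold change of each member in the 4 comparisons of 2 groups and, on the right, the interaction, with 95% intervals (edgeR, all 12 libraries). Filled red points passed at an adjusted p at or under 0.05: Angptl4 in Lip+ISO against Lip (-2.33), against ISO (-2.86) and in the interaction (-2.06), Gpihbp1 in Lip+ISO against ISO (-1.46), and Vldlr with ISO (-0.44 and -0.37).

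Over the 9 members, the median log2 fold change was -0.07 for ISO against DMSO, 0.06 for Lip+ISO against Lip, -0.18 for Lip against DMSO, -0.01 for Lip+ISO against ISO and 0.03 in the interaction, beside medians of all genes between -0.02 and 0.00. No member passed higher in any of the 5. At an unadjusted p under 0.05, Gpihbp1 in ISO against DMSO was the 1 member that was higher, and DESeq2's test also passed it alone in that direction. With library totals in place of TMM, the share of higher genes among all that passed went from 47.1% to 37.0% for ISO against DMSO and from 42.2% to 26.5% for Lip+ISO against Lip, and the signs of Lpl, Cd36, Fabp3, Fabp4 and Fabp5, which had not passed, turned in the second.

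The level of the 9 transcripts differed widely. In CPM per kilobase of counted exon, as the median and range over 12 libraries, Fabp4 stood at 23368 (18105 to 27295), the highest of 13531 ranked genes, Lpl at 2207 (1956 to 2677, rank 8) and Cd36 at 1365 (1267 to 1552, rank 27). Angptl4 followed at 472 (62.2 to 743) and Fabp5 at 105 (70.7 to 137), and these neighbors overlapped, since Angptl4 was the higher in the 9 libraries outside Lip+ISO only. Lmf1 at 21.1, Gpihbp1 at 15.0 and Vldlr at 5.23 came next, where Gpihbp1 overlapped with both of its neighbors, and Fabp3 was last at 1.34. From the lowest to the highest library, Angptl4 spanned 11.9-fold, Gpihbp1 7.63-fold and Fabp3, on few counts, 12.1-fold, whereas Cd36, Lmf1, Lpl, Fabp4, Vldlr and Fabp5 spanned 1.23-fold to 1.94-fold.

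Of the other genes of the pathway, 60 were tested, in lists of LPL partners and regulators, lipoprotein receptors, fatty acid transport and activation, and FABP relatives. ISO against DMSO passed 9 higher and 2 lower, beside 12.3% and 13.9% of all genes, and Lip+ISO against Lip 11 higher and 1 lower, beside 11.5% and 15.8%. Lip+ISO against ISO passed 3 higher and 5 lower, beside 4.36% and 4.59%. In Lip against DMSO and in the interaction 0 of 60 passed in edgeR's test. At an unadjusted p under 0.05 there were 3 and 9, beside 582 and 1868 of all 13543 genes. DESeq2's test passed 1 and 3. Of all genes it passed 22 higher and 35 lower in Lip against DMSO, and 318 higher and 223 lower in the interaction. With the replicate block, ISO against DMSO passed 17 higher and 6 lower, where all genes passed 2552 higher and 2660 lower, and Lip+ISO against Lip passed 14 and 2, where all genes passed 2093 and 2726. The block gave 9 higher and 10 lower for Lip+ISO against ISO, where all genes passed 1149 higher and 1458 lower. In the interaction it gave 3 in each direction, where all genes passed 427 higher and 471 lower. The totals also moved with single libraries. They were 6 higher without DMSO replicate 3 for ISO against DMSO and 6 without replicate 2 of every group for Lip+ISO against Lip, and Lip+ISO against ISO had 0 higher without replicate 2 and 1 lower without replicate 3 of every group. In the same fits, in that order, the counts of all genes fell as well. They went from 1670 to 1088, from 1562 to 932, from 590 to 171 and from 621 to 218.

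Among 22 tested LPL partners and regulators, 2 passed higher and 1 lower with ISO, 4 higher and 0 lower with ISO under inhibitors, and 1 in each direction in Lip+ISO against ISO. Sdc1, a heparan sulfate proteoglycan that binds lipoproteins, rose from 37.6 ± 13.0 to 171 ± 34.0 CPM with ISO (log2 fold change 2.19 ± 0.22, edgeR adjusted p = 1.4e-05) and from 39.7 ± 4.91 to 95.5 ± 13.3 CPM under inhibitors (1.27 ± 0.21, 0.000598). It was lower in Lip+ISO than in ISO (-0.84 ± 0.21, edgeR adjusted p = 0.0239), in 9 of 15 fits with libraries left out. Lipg, endothelial lipase, rose with ISO without inhibitors (0.93 ± 0.28, edgeR adjusted p = 0.0253, in 8 of 15 fits) and with them (1.52 ± 0.28, 0.0013, in 15 of 15), and its interaction did not pass (0.568). Of the proprotein convertases, which cleave and inactivate lipoprotein lipase or process its inhibitors, Pcsk6 was lower with ISO (-0.43 ± 0.12, edgeR adjusted p = 0.0182). With ISO under inhibitors Pcsk6 did not pass (-0.26 ± 0.12, 0.126), and Pcsk5 passed higher (0.51 ± 0.17, 0.0378). Furin was higher in Lip+ISO than in ISO (0.32 ± 0.09, 0.0463). The calls of Pcsk6, Pcsk5 and Furin held in 10, 9 and 2 of 15 fits.

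Among 12 lipoprotein receptors and their regulators, 3 passed higher and 1 lower in each of the 2 responses to ISO, and 1 in each direction in Lip+ISO against ISO. Olr1, a scavenger receptor for oxidized low density lipoprotein, rose from 7.17 ± 1.53 to 31.4 ± 10.4 CPM with ISO (2.13 ± 0.30, edgeR adjusted p = 0.000265) and was at 8.17 ± 1.81 CPM in Lip+ISO, lower than in ISO (-1.94 ± 0.30, 0.00152). Lrp5, a receptor that also serves Wnt signaling, fell with ISO, with a log2 fold change of -0.56 ± 0.11 without and of -0.86 ± 0.11 with inhibitors (edgeR adjusted p = 0.00229 and 6.55e-05). Mylip, a ubiquitin ligase that marks VLDLR for degradation, rose with ISO both without (0.85 ± 0.17, edgeR adjusted p = 0.00262) and with inhibitors (0.75 ± 0.17, 0.00487). Left-out libraries took away the second of these calls in 1 of 15 fits.

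Among 21 tested genes of fatty acid transport, activation and binding, 4 passed higher and 0 lower in each response to ISO, and 1 higher and 2 lower in Lip+ISO against ISO. The long-chain acyl-CoA synthetases Acsl3 and Acsl4, which activate fatty acids for further use, rose most clearly. Acsl3 went from 42.8 ± 6.90 to 122 ± 19.99 CPM with ISO (1.51 ± 0.14, edgeR adjusted p = 6.31e-06) and from 45.8 ± 4.42 to 146 ± 9.84 CPM under inhibitors (1.67 ± 0.14, 1.42e-06). Acsl4 went from 104 ± 4.48 to 265 ± 35.1 CPM (1.36 ± 0.12, edgeR adjusted p = 6.37e-06) and from 98.1 ± 1.5 to 360 ± 64.6 CPM (1.88 ± 0.12, 2.28e-07). Both held in 15 of 15 fits with libraries left out, in both responses.

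In Lip+ISO against ISO the 2 that passed lower were Ffar4, a receptor for long-chain fatty acids (-0.98 ± 0.18, edgeR adjusted p = 0.00422), and Acsbg1, an acyl-CoA synthetase at 3.03 CPM or less in every group mean (-1.23 ± 0.32, 0.0301). Of the FABP relatives, 5 of 11 were tested and only Rbp7, a retinol binding protein, passed, in Lip+ISO against ISO (-2.17 ± 0.50, edgeR adjusted p = 0.0161). Rbp7 fell from 25.0 ± 6.25 to 5.55 ± 2.46 CPM. Over the 12 libraries Rbp7 followed Gpihbp1 (r = 0.973), and the part of endothelial content in its fall was not tested. With libraries left out, Ffar4 passed in 13, Acsbg1 in 9 and Rbp7 in 11 of 15 fits.

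The transcripts whose log2 CPM followed a member most closely over the 12 libraries were found among all tested genes, with Pearson's r as a description. Likeness of their group means to those of the member follows from this choice and is no separate result. For Angptl4 these were Gramd4 (r = 0.992), Prune (0.978), Ruvbl2 (0.978), Nup188 (0.977) and Abcg1 (0.975), and the means of all 5 were lowest in Lip+ISO. Abcg1, a cholesterol exporter, was at 156, 138, 118 and 57.5 CPM in DMSO, ISO, Lip and Lip+ISO. For Gpihbp1 they were Rgs5 (0.977), Rbp7 (0.973), Plekhg1 (0.968), Ushbp1 (0.964) and Sox18 (0.959), each with its highest mean in ISO. For Lpl, which did not differ between groups, they were Scp2 (0.964), Mmgt1 (0.956), Nfia (0.954), Eif4a2 (0.917) and Ptgr2 (0.895).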

How the data were processed

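RNA sequencing of 12 libraries of 3D-cultured eWAs gave the deposited table of raw read counts per RefSeq gene, with no normalization. Per the labels and the study's methods, the authors aligned reads with STAR 2.4.2a to mm9 and counted them with HOMER (1 read per position and read length) and iRNA-seq. Counted exon lengths were used as deposited, for levels per kilobase. The labels give ISO as the stimulus, while a legend of the study names another compound, SR-3420. The study describes 3 independent experiments, each in technical duplicate. Groups and replicate numbers come from the sample titles. No count column was left out.

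Counts were tested in R 4.3.3 with edgeR 4.0.16 (filterByExpr, TMM factors 0.924 to 1.07, quasi-likelihood F-test, 2-sided, 1 mean per group over all 12 libraries, no block). The common biological coefficient of variation was 0.163. Intervals are at 95%, and log2 CPM used a prior count of 2. The procedure was first tested on simulated data. Alternatives were the replicate block, DESeq2 1.42.0 (Wald test, and its size factors), library totals alone, no filter on low counts, the groups of a comparison alone, a minimum log2 fold change of 1, and leaving out each library or replicate number. Since nothing states strand-specific counting, overlapping genes were looked for in the table's spans, and no member had one. Motifs were searched in NCBIM37, the assembly of mm9, and 36-base words were compared with the coding transcripts of its annotation.

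To see whether replicate numbers pair libraries, deviations from group means were correlated over genes. Same-numbered libraries gave r = 0.298, 0.331 and 0.139 between ISO and DMSO, 0.192, 0.298 and 0.232 between Lip+ISO and Lip, and 0.343, 0.369 and 0.197 between Lip and DMSO, so blocked values are given beside results in these comparisons where a call changed.

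The members and gene lists were chosen with earlier results of these data known. Named beside the members are the 5 genes most correlated with Lpl, Angptl4 and Gpihbp1 each. Chosen after their values were seen were Pcsk5 and the endothelial markers that passed in the 2 comparisons where Gpihbp1 is described. For each pathway list and comparison, the 2 genes with the smallest adjusted p among those that passed are named too. The result of 1 gene that this rule names is not reported here.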

Additional observations from a re-analysis of the deposited data

Results flagged for a closer look

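Angptl4 responded to ISO more strongly where the lipase inhibitors were present. The difference was -2.06 on the log2 scale (edgeR quasi-likelihood test of the interaction, adjusted p = 0.000195), from a drop by 0.27 without inhibitors to a drop by 2.33 with them. All 3 Lip+ISO libraries (118 to 175 CPM) lay below all 3 Lip libraries (678 to 793 CPM), and the ISO libraries (1002 to 1143 CPM) lay just below the DMSO libraries (1169 to 1414 CPM). Of all tested genes, 39.1% lay apart in the first of these pairs and 43.3% in the second.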

How the results depend on the processing

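Of the counts of members, the replicate block, DESeq2's test and a fit of the 2 groups alone each gave 1 higher for ISO against DMSO (Gpihbp1) in place of 0. The block, DESeq2's test, the fit of the 2 groups alone and the fit without a filter on low counts each gave 1 lower for Lip against DMSO (Angptl4) in place of 0. For ISO against DMSO the count of lower members was 2 with the block and 0 with a minimum log2 fold change of 1, which also left 1 of 2 for Lip+ISO against Lip. With library totals in place of TMM, Lmf1 passed lower in Lip+ISO against Lip beside Angptl4 and Vldlr. Leaving out libraries gave 0 to 1 higher and 0 to 1 lower for ISO against DMSO, 1 to 2 lower for Lip+ISO against Lip, 0 to 1 lower for Lip against DMSO (1 without Lip+ISO replicate 1 or 2) and 1 to 2 lower for Lip+ISO against ISO. Over these fits the log2 fold change of Angptl4 stayed between -2.99 and -2.72 for Lip+ISO against ISO and between -2.19 and -1.92 in the interaction. No member that passed changed its sign under an alternative.

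In Lip+ISO against ISO, same-numbered libraries gave r = 0.102, 0.311 and 0.0373. The block there kept the 2 members, with Gpihbp1 at -1.50 (edgeR adjusted p = 0.0015). It moved the counts of all genes from 590 to 1149 higher and from 621 to 1458 lower. In the interaction it left Angptl4 at -2.07 and moved all genes from 122 to 427 higher and from 98 to 471 lower. The block changed no other call of a member than those given. Over all groups, same-numbered pairs had a median r of 0.274 (n = 18) and other pairs of -0.121 (n = 36).

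With 3 libraries per group, intervals of the abundant members reach about 0.3 on the log2 scale to either side, and those of Fabp3 more than 1. Library totals in place of TMM moved the median of all genes in Lip+ISO against Lip to -0.12, and the cause was not tested.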
